A study of Penicillium oxalicum with 12 samples.

Results

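The 97 genes described here had higher mRNA levels than the wild type in both Penicillium oxalicum strains that carry a changed sugar-responsive regulator. These strains carry a changed form of XlnR or of AraR. In a strain that carries a chimeric factor named CXC, the genes lay within set bounds around the wild-type level. They were selected on the measured values. A gene entered the list when its mean log2(FPKM + 1) was at least 1 above the wild-type mean in both regulator strains and less than 0.8 away from it, in either direction, in the CXC strain. FPKM is a fragment count divided by the length of the gene and by a library total. Differences of low genes are understated on this log2 scale, so not every member was close to the wild type in FPKM in the CXC strain. PDE_06725 averaged 1.46 FPKM in the CXC strain against 0.489 in the wild type. PDE_04016 averaged 0.129 FPKM in the CXC strain against 0.805 in the wild type. The list holds 97 of the 9125 genes with 3 or more libraries at 1 FPKM or above, out of 9979 genes in the deposited table. In all, 142 genes were at or above 1 in both regulator strains whatever the CXC strain did. Of the genes that were not taken, 43 were at or above 0.8 and 2 were at or below -0.8 in the CXC strain.

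The strains were gXlnRC, which expresses XlnR with the substitution A871V, gAraRC, which expresses AraR with the substitution A731V, gCXC, which expresses the chimeric factor, and the wild-type control 114-2 (WT), with 3 biological replicates each. All 12 cultures were grown for 24 h on glucose (2%) in Vogel's medium, a defined mineral medium, and were sampled 4 h after transfer to that medium with no carbon source, at 30 °C and 200 rpm. The labels do not say which promoter drives each factor, where it was integrated, how many clones a strain stands for, or which proteins CXC was built from. Whether the native regulator genes were still present is not stated either.

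XlnR is a zinc cluster transcription factor known from Aspergillus and its relatives as the activator of genes for xylan breakdown and xylose use. AraR is a related zinc cluster factor known there for the control of genes for the use of arabinose and other pentoses, and the target sets of the pair overlap in Aspergillus. In Trichoderma reesei, an alanine-to-valine change in Xyr1, the counterpart of XlnR, is known to permit expression of target genes without an inducing sugar. P. oxalicum is a soil fungus that secretes enzymes against plant cell walls. The deposited table names genes by PDE locus tags, 0 of which matched the reference gene table at hand, so no member could be given a gene name or a role.

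Library depth, inferred from the step size of the FPKM values, lay between 14549534 and 20092360 reads counted in genes. Replicates of a strain differed by more than counting noise in every pair, with a mean chi-square per gene between 5.29 and 31.1 in 10 of the 12 pairs. The other 2 pairs, at 54.0 and 65.5, both contained gAraRC replicate 1. This library was the highest of the 3 gAraRC libraries in 57 of the 97 members (58.8%, against 40.3% of all tested genes) and the lowest in 34 (35.1%, against 37.2%). In bulk RNA, fewer cells of one kind and less RNA per cell cannot be told apart.

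In gXlnRC, the members lay between 1.01 and 5.83 above WT on the log2(FPKM + 1) scale, with a median of 1.35, while the median of all tested genes was -0.10. In gAraRC they lay between 1.01 and 6.91 above WT with a median of 1.87, against -0.34 over all tested genes. In gCXC they lay between -0.67 and 0.78, with a median of 0.31. The bounds of the selection set these ranges, so they describe the list and test nothing. All 97 members passed the limma test (Benjamini-Hochberg adjusted p below 0.05) as higher than WT in gXlnRC, where 19.1% of tested genes were called higher, and all 97 did so in gAraRC, where 19.1% of tested genes were called higher as well. Nothing is read from these counts, since the selection used the same contrasts. The selection also shaped the separation of the libraries, which is given as a description without a share over all tested genes. In 95 of the 97 members, each of the 6 gXlnRC and gAraRC libraries was above each of the 6 gCXC and WT libraries. The exceptions were PDE_03091 and PDE_06581, where a gXlnRC library did not exceed the highest gCXC library.

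**Figure D1:**
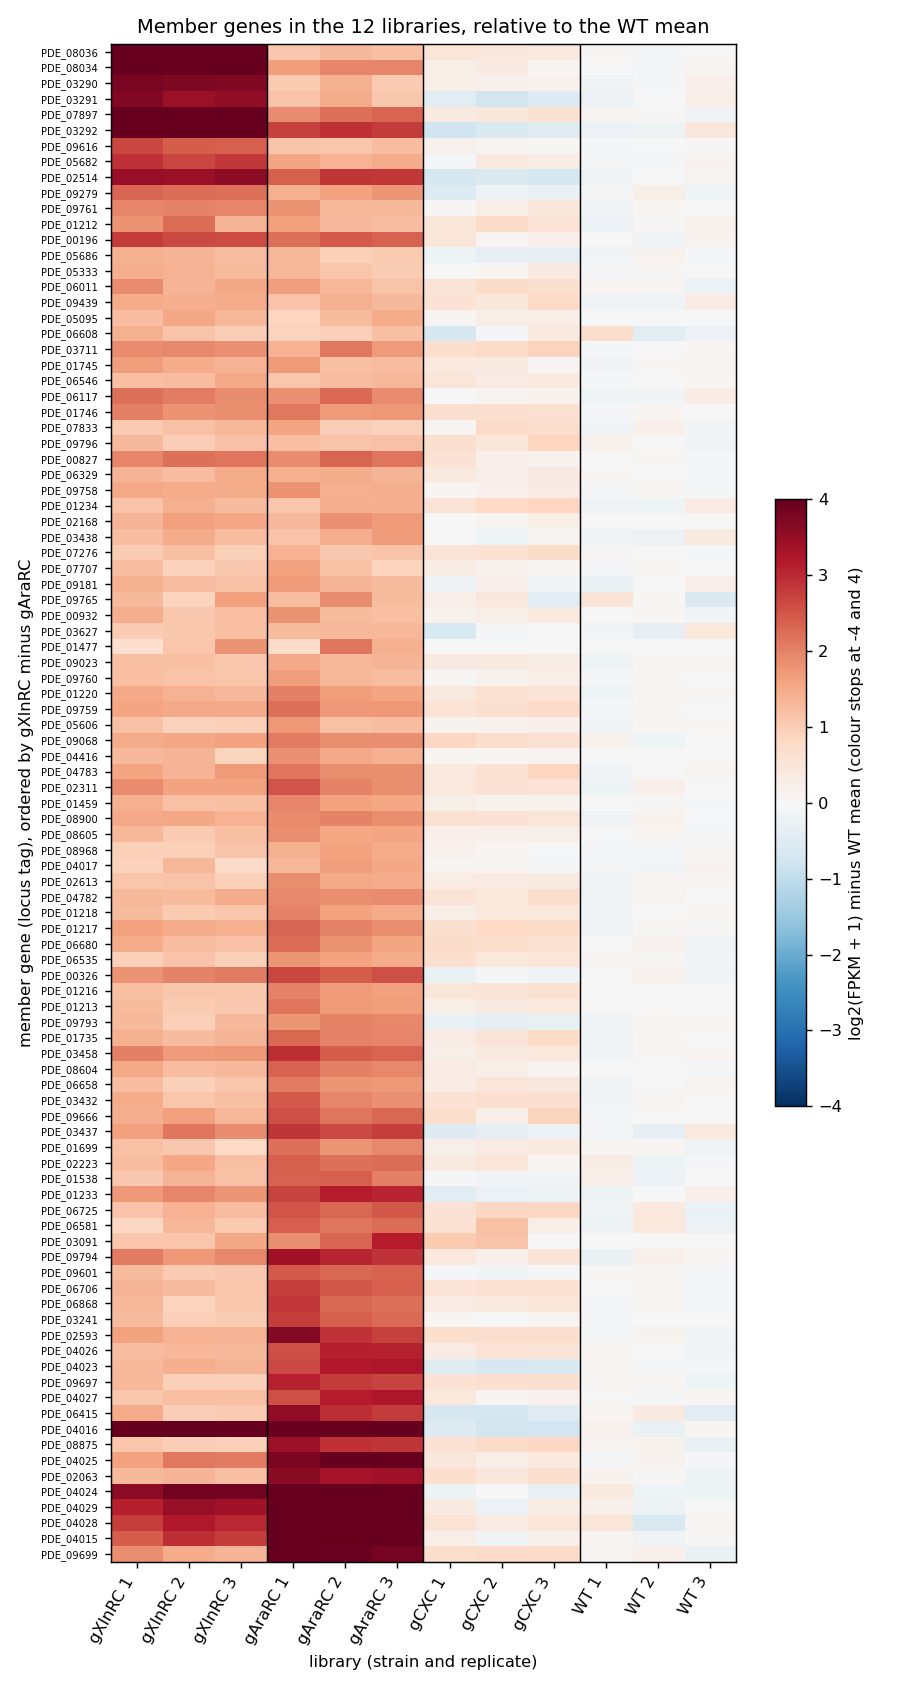
Each of the 97 members (down the page, ordered by the gXlnRC minus gAraRC difference) in each of the 12 libraries (across, by strain and replicate), coloured by log2(FPKM + 1) minus the WT mean, with the colour stopping at -4 and 4. The 3 gXlnRC and 3 gAraRC columns are raised throughout, as the selection requires, but the members at the top are strongest in gXlnRC and a larger block at the bottom is strongest in gAraRC.

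The members differed widely in level. Their mean WT level was under 1 FPKM in 11 members, from 1 to under 10 in 33, from 10 to under 100 in 30 and at least 100 in 23. Of the members, 45.4% were under 10 FPKM in WT, compared with 26.8% of all tested genes. The median member had 57.3 FPKM in gXlnRC, 76.9 in gAraRC, 16.3 in gCXC and 14.9 in WT, while the median tested gene had 25.5 FPKM in gXlnRC, 21.2 in gAraRC, 26.5 in gCXC and 26.9 in WT. The median member thus stood above the median gene in both regulator strains and below it in gCXC and WT. The rise of the members from WT to the regulator strains was set by the selection. The inferred coding length had a median of 1389 nt in the members and 1161 nt in all tested genes, with 8 members (8.25%, against 7.15% of tested genes) at 3000 nt or longer.

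Together the members held 7.04%, 6.91% and 6.07% of the reads in the 3 gXlnRC libraries and 10.4%, 8.24% and 7.77% in the 3 gAraRC libraries. They held 3.02%, 3.33% and 3.26% in gCXC and 2.12%, 2.36% and 2.32% in WT. The means were 6.67% ± 0.528 in gXlnRC, 8.82% ± 1.42 in gAraRC, 3.20% ± 0.159 in gCXC and 2.27% ± 0.128 in WT (SD, n = 3 each). Since the members were selected for higher levels in gXlnRC and gAraRC, their higher shares there than in WT and gCXC describe the list. The gXlnRC and gAraRC shares did not overlap with each other or with the other strains, and the highest gAraRC share was that of replicate 1. Without that library the gAraRC mean was 8.01%. Long and abundant members weigh most in these shares, so the shares do not describe each member alike. In replicate 1, PDE_06706 had 100164 inferred reads in gXlnRC and 236265 in gAraRC, and PDE_01212 had 202835 in gXlnRC and 157926 in gAraRC.

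Whether the strains raised the members to the same level was tested directly between gXlnRC and gAraRC, a contrast that the selection did not use as such. In this contrast 71 of the 97 members (73.2%) were called, a share close to the 72.5% of all tested genes that differed between these strains. By direction, 13 members (13.4%) were higher in gXlnRC, against 49.1% of all tested genes, and 58 members (59.8%) were lower in gXlnRC, against 23.5% of all tested genes. This split is shaped by the selection, which used the same 6 libraries and required both strains to be well above WT. It describes the list and is no independent result about it. The median gXlnRC minus gAraRC difference was -0.43 over the members and 0.21 over all tested genes on the log2(FPKM + 1) scale. The remaining 26 members were not called, with differences between -0.25 and 0.42 and a median standard error of 0.13 over the list, which does not show that both strains raised them equally.

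Both the background of this contrast and the members' differences depend on the scaling of the libraries. More members were called lower than higher in gXlnRC under each scaling. With the FPKM as deposited, 4476 genes were called higher and 2141 lower in gXlnRC. With median-of-ratios scaling, the median difference was -0.01 over all tested genes and -0.67 over the members. The split was then 3204 higher and 3239 lower, and the members' split was 10 higher and 64 lower. With quantile normalization it was 3221 higher and 3219 lower, with 11 members higher and 63 lower. Rescaling to TPM gave 4111 higher and 2355 lower, with 12 members higher and 58 lower. Without gAraRC replicate 1, 17 members were called higher and 53 lower in gXlnRC.

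**Figure D2:**
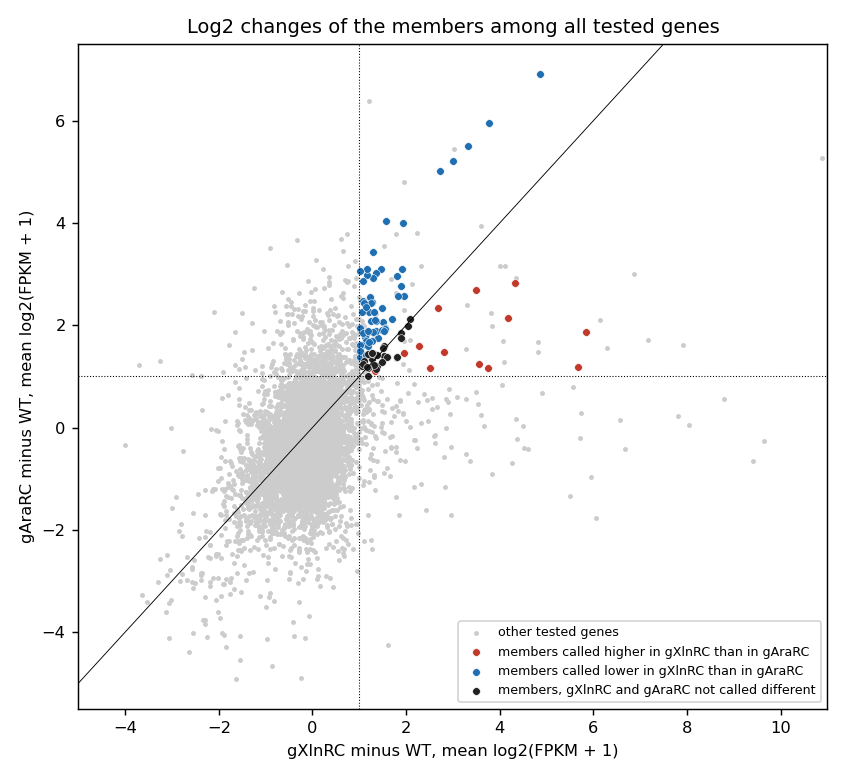
Log2 change against WT, as the difference of mean log2(FPKM + 1), in gXlnRC (horizontal) and gAraRC (vertical) for all 9125 tested genes in grey and the 97 members in colour by their direct gXlnRC against gAraRC call; dotted lines mark the bound of 1 and the diagonal marks equal change. The 58 members that were lower in gXlnRC lie above the diagonal and the 13 that were higher lie below it, and grey points inside the bounds are genes that the gCXC bound left out.

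The 5 largest gAraRC differences from WT lay in a series of tags from PDE_04015 to PDE_04029. Of the 14 tested tags in this series, 10 were members, PDE_04015 to PDE_04017 and PDE_04023 to PDE_04029. Consecutive tags usually follow the order of genes along a chromosome, but the sources used here do not give the positions. All 10 were lower in gXlnRC than in gAraRC.

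PDE_04016 had the highest gAraRC difference from WT of the list, 6.91 on the log2 scale. It had 44.0, 62.2 and 49.1 FPKM in gXlnRC and 159, 253 and 247 in gAraRC, against 0.259, 0.0858 and 0.0426 in gCXC and 1.03, 0.495 and 0.889 in WT. The gene was thus near silence in WT, at 14 to 25 inferred reads per library, and lower still in gCXC, at 1 to 7 reads. It was strongly expressed in both regulator strains without any overlap. The gCXC mean was 0.129 FPKM against 0.805 in WT. On the log2(FPKM + 1) scale, which understates differences of low genes, the gene differed from WT by only -0.67 in gCXC, inside the bound. Its mean FPKM was 64.3 times the WT mean in gXlnRC and 273 times in gAraRC, and the direct log2 difference of gXlnRC minus gAraRC was -2.05 ± 0.19 (SE, limma adjusted p = 7.86e-07).

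PDE_04024 had 22.9, 27.9 and 27.7 FPKM in gXlnRC and 97.8, 134 and 139 in gAraRC, against 0.736, 1.02 and 0.621 in gCXC and 1.58, 0.749 and 0.744 in WT. The gXlnRC and gAraRC libraries stood apart from each other and from a low range that gCXC and WT shared. The direct log2 difference was -2.18 ± 0.17 (limma adjusted p = 2.26e-07). PDE_04029 had 20.7, 26.8 and 24.5 FPKM in gXlnRC and 82.1, 128 and 135 in gAraRC, against 2.22, 1.12 and 2.09 in gCXC and 1.89, 1.16 and 1.48 in WT. The same order of strains was seen, and gCXC again overlapped with WT.

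PDE_04015 averaged 16.3 ± 3.12 FPKM in gXlnRC and 83.6 ± 15.2 in gAraRC, compared with 1.83 ± 0.381 in the gCXC libraries and 1.58 ± 0.226 in WT (SD over 3 libraries of each strain, as for all such means). Its direct log2 difference, -2.29 ± 0.16, was the most negative in the series (limma adjusted p = 9.04e-08). PDE_04028 averaged 16.2 ± 2.54 FPKM in gXlnRC and 80.2 ± 17.8 in gAraRC, against 1.95 ± 0.223 in gCXC and 1.24 ± 0.801 in WT. PDE_04025 was another gene of low WT level, at 7.09 ± 1.44 FPKM in gXlnRC and 32.8 ± 4.56 in gAraRC, against 1.72 ± 0.163 in gCXC and 1.10 ± 0.179 in WT. These genes had a mean 4.63 to 5.14 times as high in gAraRC as in gXlnRC.

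Other members of the series were already expressed in WT. PDE_04023 averaged 96.6 ± 5.24 FPKM in gXlnRC and 313 ± 66.4 in gAraRC, against 24.5 ± 1.43 in gCXC and 36.9 ± 1.81 in WT. PDE_04026 averaged 127 ± 4.91 FPKM in gXlnRC and 403 ± 76.7 in gAraRC, against 70.9 ± 5.69 in gCXC and 51.4 ± 4.59 in WT. PDE_04027 averaged 16.0 ± 0.863 FPKM in gXlnRC and 59.8 ± 13.5 in gAraRC, against 7.88 ± 1.18 in gCXC and 6.54 ± 0.405 in WT. Their direct log2 differences were -1.66, -1.64 and -1.81, in this order, so the higher level in gAraRC was shared by genes of high and low WT expression.

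PDE_04017, with an inferred coding length of 12243 nt, was the weakest of the series. It averaged 8.16 ± 1.93 FPKM in gXlnRC and 11.9 ± 1.44 in gAraRC, against 3.67 ± 0.271 in gCXC and 3.51 ± 0.424 in WT, and its gXlnRC and gAraRC libraries overlapped. Its direct log2 difference was -0.51 ± 0.14 (limma adjusted p = 0.00634). In all 10 members of the series, gAraRC replicate 1 was the lowest of its 3 libraries, unlike in most of the list. Leaving that library out moved the direct log2 difference of PDE_04016 to -2.26 and that of PDE_04024 to -2.34.

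The tested genes between these members behaved unevenly. Their log2 differences from WT were 0.99 in gXlnRC and 1.24 in gAraRC for PDE_04022, which missed the list by a small margin, and 0.80 in gXlnRC and 1.76 in gAraRC for PDE_04019. They were 0.08 in gXlnRC and 0.74 in gAraRC for PDE_04020, and -0.23 in gXlnRC and -0.58 in gAraRC for PDE_04021. Of these 4 genes, PDE_04020 and PDE_04021 were the closest to WT in gXlnRC.

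**Figure D3:**
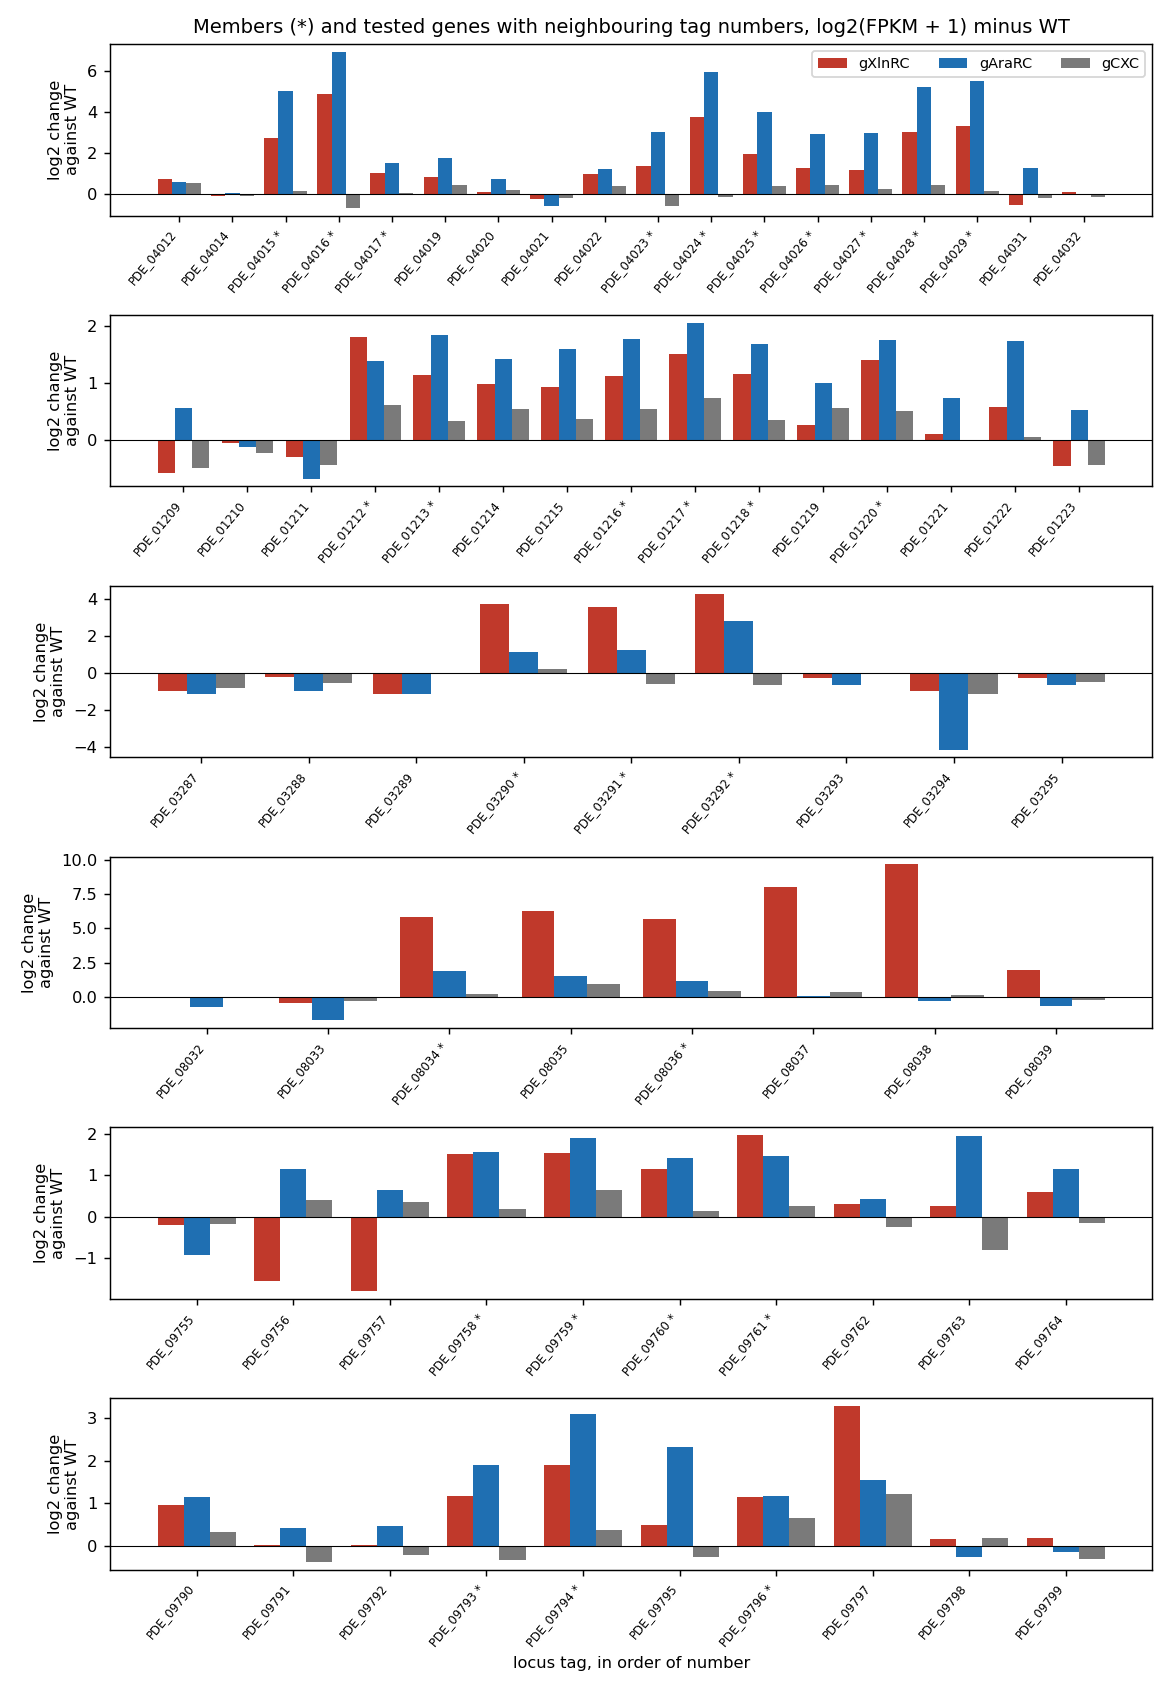
Log2 change against WT, as the difference of mean log2(FPKM + 1), in gXlnRC, gAraRC and gCXC (bars) for members (asterisk) and tested genes with neighbouring tags, in 6 panels with separate vertical scales, in order of tag number. gAraRC bars exceed gXlnRC bars in all members from PDE_04015 to PDE_04029, gXlnRC bars exceed them in PDE_03290 to PDE_03292, PDE_08034 and PDE_08036, and in PDE_09758 to PDE_09761 the gXlnRC bar is the higher for PDE_09761 and the gAraRC bar for the other members.

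The opposite order, with gXlnRC above gAraRC, was most marked for PDE_08036 and PDE_08034. PDE_08036 had 590.3, 543 and 567 FPKM in gXlnRC and 22.2, 26.0 and 24.8 in gAraRC, against 14.4, 14.3 and 13.5 in gCXC and 10.6, 9.55 and 10.2 in WT. All 4 strains were separate from one another, with gXlnRC far above the rest and gAraRC only modestly above gCXC. The gXlnRC mean was 23.3 times the gAraRC mean, with a log2 difference of 4.49 ± 0.07 (limma adjusted p = 6.20e-14).

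PDE_08034 had 90.2, 96.4 and 100.3 FPKM in gXlnRC and 4.45, 5.56 and 5.54 in gAraRC, against 0.984, 1.19 and 0.786 in gCXC and 0.666, 0.612 and 0.811 in WT. It was the member with the greatest gXlnRC difference from WT, 5.83 on the log2 scale, and the gAraRC libraries were again well below gXlnRC and clear of gCXC and WT. The direct log2 difference was 3.97 ± 0.11 (limma adjusted p = 1.97e-11).

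The genes next to this pair by tag did not meet the bounds. PDE_08035, between them, had log2 differences from WT of 6.29 in gXlnRC, 1.55 in gAraRC and 0.95 in gCXC. The differences were 8.03 in gXlnRC and 0.04 in gAraRC for PDE_08037, and 9.65 in gXlnRC and -0.27 in gAraRC for PDE_08038. All 5 genes were far above WT in gXlnRC, and their much smaller gAraRC and gCXC differences decided which of them entered the list.

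PDE_03290, PDE_03291 and PDE_03292 formed a further run that was higher in gXlnRC. PDE_03292 had 1463, 1269 and 1199.5 FPKM in gXlnRC and 433, 499 and 455 in gAraRC, against 37.0, 43.1 and 45.5 in gCXC and 54.5, 55.7 and 88.7 in WT. Every gCXC library was below every WT library, opposite to the regulator strains. Directly, gXlnRC exceeded gAraRC by 1.5 ± 0.16 on the log2 scale (limma adjusted p = 3.11e-06).

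PDE_03290 averaged 205 ± 6.63 FPKM in gXlnRC and 33.8 ± 5.25 in gAraRC, against 16.7 ± 0.239 in gCXC and 14.4 ± 2.06 in WT. PDE_03291 averaged 303 ± 26.6 FPKM in gXlnRC and 60.2 ± 9.42 in gAraRC, against 16.3 ± 1.73 in gCXC and 25 ± 4.73 in WT. In the direct contrast, the log2 differences were 2.57 ± 0.10 for PDE_03290 and 2.32 ± 0.14 for PDE_03291 (limma adjusted p = 6.70e-10 and 1.70e-08). The tested genes on either side, PDE_03289 and PDE_03293, had log2 differences from WT of -1.10 and -0.25 in gXlnRC and of -1.15 and -0.63 in gAraRC, so the run ended sharply on both sides.

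Outside of these runs, PDE_07897 was also higher in gXlnRC, with 339, 303 and 311 FPKM in gXlnRC and 64.4, 79.6 and 86.6 in gAraRC, against 21.5, 22.9 and 25.7 in gCXC and 17.8, 17.3 and 14.8 in WT. No library of one regulator strain reached the range of the other. On the log2 scale, gXlnRC exceeded gAraRC by 2.04 ± 0.11 (limma adjusted p = 6.46e-09). PDE_02514 averaged 56.5 ± 2.85 FPKM in gXlnRC and 32.2 ± 5.78 in gAraRC, against 2.22 ± 0.170 in gCXC and 4.09 ± 0.442 in WT, with a direct log2 difference of 0.81 ± 0.12 (limma adjusted p = 5.54e-05). It was raised strongly in both regulator strains and was lower than WT in each gCXC library.

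PDE_00196 had a smaller gap, with 72.5, 65.3 and 63.9 FPKM in gXlnRC and 48.0, 57.7 and 53.4 in gAraRC, against 14, 10.6 and 11.2 in gCXC and 9.67, 8.71 and 10.6 in WT. The direct log2 difference of 0.34 ± 0.11 was called (limma adjusted p = 0.0121) but was no longer called without gXlnRC replicate 1 (0.29, adjusted p = 0.0521), without gAraRC replicate 1 (0.27, adjusted p = 0.0503) or with median-of-ratios scaling or quantile normalization. The 4 members not yet named among those called higher in gXlnRC were PDE_05682, PDE_05686, PDE_09279 and PDE_09616, which are named after their values were seen. Their direct log2 differences were 1.32, 0.24, 0.67 and 1.33. That of PDE_05686 had an adjusted p of 0.0443 and lost its call under 10 of the alternatives, 1 of which also turned its sign.

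**Figure D4:**
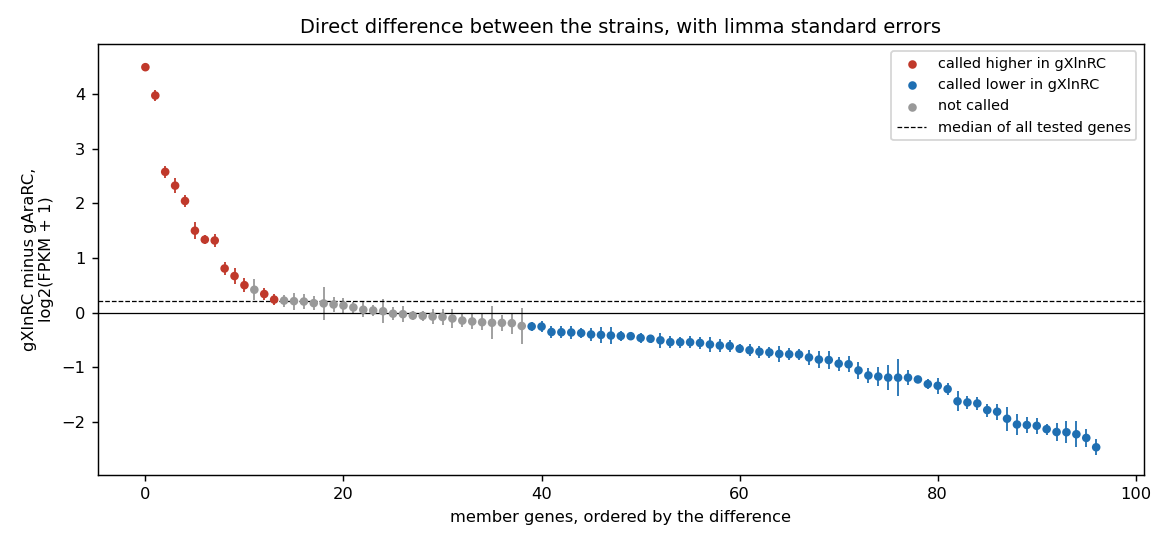
Difference of gXlnRC minus gAraRC in log2(FPKM + 1) for the 97 members, ordered from highest to lowest, with bars of 1 limma standard error and a dashed line at 0.21, the median of all tested genes. A short steep arm of 13 members called higher in gXlnRC reaches 4.49, and a long arm of 58 members called lower reaches -2.46. The 26 uncalled members lie from -0.25 to 0.42, which overlaps the low end of the members called higher, at 0.24.

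At the other end of this order, PDE_09699 had the most negative direct difference. It had 154, 119 and 111 FPKM in gXlnRC and 849, 669 and 612 in gAraRC, against 68.8, 72.6 and 72.6 in gCXC and 44.1, 48.2 and 35.1 in WT. All strains were separate, and gCXC lay between the regulator strains and WT. The log2 difference was -2.46 ± 0.15 (limma adjusted p = 1.76e-08), a gAraRC mean 5.55 times the gXlnRC mean.

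PDE_09697, a nearby tag described here after its values were seen, showed the same order at 27.2 ± 4.17 FPKM in gXlnRC and 96.2 ± 13.8 in gAraRC, against 19.6 ± 0.600 in gCXC and 12.3 ± 1.33 in WT. PDE_02063 had 69.8, 73.0 and 64.5 FPKM in gXlnRC and 346, 279 and 296 in gAraRC, against 44.4, 37.9 and 43.9 in gCXC and 30.3, 28.8 and 23.9 in WT. It too was raised most in gAraRC, with a direct log2 difference of -2.13 ± 0.10 (limma adjusted p = 2.80e-09) and gCXC above WT in each library.

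By the mean over all 12 libraries, the most abundant members were PDE_09761, PDE_06706, PDE_03432 and PDE_01216. PDE_09761 had 4908, 4942 and 4892 FPKM in gXlnRC and 4328, 3132 and 3086 in gAraRC, against 1295, 1498 and 1718 in gCXC and 1172, 1327 and 1281 in WT. It was the only member with a mean above 1000 FPKM in WT. The gXlnRC libraries were tightly grouped above all gAraRC libraries, of which replicate 1 stood apart, and gCXC and WT overlapped. The direct log2 difference of 0.50 ± 0.13 was called (limma adjusted p = 0.00391) but not with median-of-ratios scaling (0.26, adjusted p = 0.0958).

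PDE_06706 had 1834, 1737 and 1555 FPKM in gXlnRC and 4924, 4072 and 3751 in gAraRC, against 1057, 1102 and 1096 in gCXC and 733, 758 and 676 in WT. Each gAraRC library was above all gXlnRC libraries, these were above all gCXC libraries, and these in turn were above all WT libraries. Between the regulator strains, the log2 difference was -1.31 ± 0.10 (limma adjusted p = 1.26e-07). PDE_03432 had 2375, 1831 and 1987 FPKM in gXlnRC and 4747, 3316 and 3031 in gAraRC, against 1287, 1344 and 1364 in gCXC and 787, 915 and 873 in WT. The order of strains was the same and again without overlap, with a wider spread within gAraRC set by replicate 1 and a direct log2 difference of -0.82 ± 0.15 (limma adjusted p = 0.00026).

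PDE_08875, described after its values were seen, was the most abundant member in gAraRC but at the edge of the list in gXlnRC. It had 1148, 1038 and 1017 FPKM in gXlnRC and 5631, 4026 and 3859 in gAraRC, against 787, 874 and 942 in gCXC and 571, 589 and 442 in WT. Its log2 difference from WT was 1.01 in gXlnRC, 3.06 in gAraRC and 0.71 in gCXC. In means, 10 members reached 1000 FPKM in gXlnRC and 14 did so in gAraRC.

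**Figure D5:**
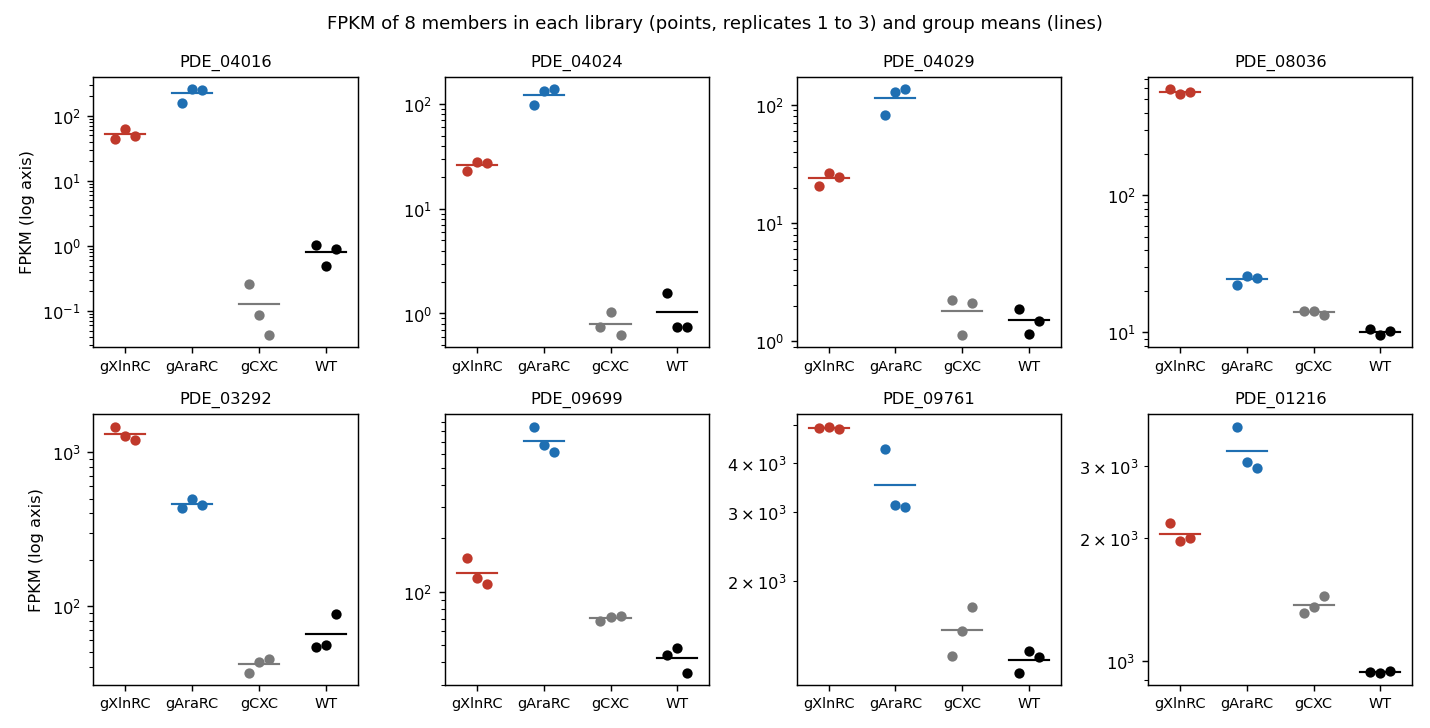
FPKM on log axes of 8 members in each library (points, replicates 1 to 3 from left to right) with the mean of each strain as a line, in the order gXlnRC, gAraRC, gCXC and WT. PDE_04016, PDE_04024 and PDE_04029 exceed 80 FPKM in each gAraRC library and stay below 2 in each WT library, PDE_08036 and PDE_03292 are highest in gXlnRC, and PDE_09699 and PDE_01216 are highest in gAraRC, with gCXC above WT.

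PDE_01216 belonged to a second long run of tags, PDE_01212 to PDE_01220, with 6 members among 9 tags. It had 2170.4, 1969 and 1992 FPKM in gXlnRC and 3730.4, 3056 and 2957 in gAraRC, against 1311, 1356 and 1441 in gCXC and 939.9, 938 and 948 in WT. The strains did not overlap, and the WT libraries were close to identical. The direct log2 difference was -0.66 ± 0.08 (limma adjusted p = 1.79e-05), a call that was lost with quantile normalization (-0.21, adjusted p = 0.0681).

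PDE_01212, with the longest inferred coding length of the list (21843 nt), was the only one of the 6 with a higher mean in gXlnRC. It had 551, 736 and 404 FPKM in gXlnRC and 488, 383 and 366 in gAraRC, against 221, 269 and 228 in gCXC and 132, 162 and 178 in WT. The regulator strains overlapped, and the direct log2 difference of 0.42 ± 0.19 was not called (limma adjusted p = 0.0644). It was called without gXlnRC replicate 3 (0.64, adjusted p = 0.00525) and without gAraRC replicate 1 (0.55, adjusted p = 0.0301).

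The other 4 members of this run, PDE_01213, PDE_01217, PDE_01218 and PDE_01220, had means of 898, 1209.7, 776 and 1074 FPKM in gXlnRC, and of 1461, 1792, 1140.3 and 1385 in gAraRC. Their means were 507, 708, 447 and 575 FPKM in gCXC, and 405, 427, 349.9 and 408 in WT. All 4 were called lower in gXlnRC, by log2 differences between -0.69 and -0.36. The call of PDE_01220 was lost without gXlnRC replicate 3 (adjusted p = 0.0598), without gAraRC replicate 1 (adjusted p = 0.0575) and with quantile normalization. The 3 tested genes between the members missed the gXlnRC bound, with log2 differences from WT in gXlnRC of 0.98 for PDE_01214, 0.92 for PDE_01215 and 0.25 for PDE_01219. The most abundant of them, PDE_01215, averaged 4968 FPKM in gXlnRC and 7913 in gAraRC, against 3374 in gCXC and 2619 in WT.

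In the run PDE_09758 to PDE_09761 the direct contrast called PDE_09761, described above, as higher in gXlnRC and PDE_09759 and PDE_09760 as lower in gXlnRC, and did not call PDE_09758. PDE_09758 had 965, 936 and 945 FPKM in gXlnRC and 1167, 906 and 914 in gAraRC, against 350.0, 377 and 423 in gCXC and 326, 355 and 324 in WT. The regulator strains overlapped, as did gCXC and WT, and the direct log2 difference was -0.06 ± 0.10 (limma adjusted p = 0.589). Its sign turned without gAraRC replicate 1 (0.06), and with median-of-ratios scaling the difference was called (-0.30, adjusted p = 0.0164).

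PDE_09759 averaged 846 ± 24.9 FPKM in gXlnRC and 1099 ± 212 in gAraRC, against 458 ± 36.4 in gCXC and 293 ± 16.8 in WT. PDE_09760 averaged 1175 ± 29.0 FPKM in gXlnRC and 1415 ± 228 in gAraRC, against 584 ± 33.6 in gCXC and 527 ± 20.5 in WT. Both were called lower in gXlnRC, with log2 differences of -0.36 ± 0.11 for PDE_09759 and -0.26 ± 0.09 for PDE_09760 (limma adjusted p = 0.0104 and 0.0261). The call of PDE_09760 was lost without gXlnRC replicate 2 (adjusted p = 0.0559), gXlnRC replicate 3 (0.0715) or gAraRC replicate 1 (0.0794), in a fit of these 2 strains alone (0.075) and with quantile normalization (0.153). The genes before the run, PDE_09756 and PDE_09757, had log2 differences from WT of -1.56 and -1.80 in gXlnRC and of 1.14 and 0.63 in gAraRC. These neighbours differed in sign between the strains, which the selection did not allow in a member.

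In the run PDE_09793, PDE_09794 and PDE_09796, described after its values were seen, the gAraRC mean was the highest in each gene. PDE_09794 had 212, 168 and 192 FPKM in gXlnRC and 517, 421 and 378 in gAraRC, against 67.8, 57.2 and 72.3 in gCXC and 41.3, 57.6 and 52.2 in WT. PDE_09793 averaged 8.92 ± 1.34 FPKM in gXlnRC and 15.2 ± 1.15 in gAraRC, against 2.47 ± 0.155 in gCXC and 3.36 ± 0.322 in WT. PDE_09796 averaged 14.7 ± 1.62 FPKM in gXlnRC and 14.9 ± 0.452 in gAraRC, against 10.2 ± 1.59 in gCXC and 6.06 ± 0.817 in WT. The direct log2 differences were -1.19 and -0.72 for PDE_09794 and PDE_09793, which were called, and -0.02 for PDE_09796, which was not.

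Over the whole list, 40 members fell into 13 runs in which each tag was at most 3 above the previous member, 22 pairs of members had consecutive tags, and 57 members stood alone. The shorter runs not described above were PDE_01233 with PDE_01234, PDE_01745 with PDE_01746, PDE_03437 with PDE_03438, PDE_04782 with PDE_04783 and PDE_08604 with PDE_08605. The 127 tested genes that adjoin a member by tag without being one had a median log2 difference from WT of 0.05 in gXlnRC, 0.13 in gAraRC and -0.02 in gCXC. All tested non-members, these 127 included, had medians of -0.10 in gXlnRC, -0.34 in gAraRC and -0.0046 in gCXC. Among the adjoining genes, 5.51% were at least 1 above WT in gXlnRC, 19.7% in gAraRC and 4.72% in gCXC. The shares of all tested non-members were 2.33%, 5.10% and 2.13% in the same strains. The gap between adjoining genes and all tested non-members was widest in gAraRC. A neighbour that met the bounds was a member and is not counted here, so the selection shaped this comparison of strains. These values describe the neighbours and were not tested.

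The members lowest in WT rested on few reads. PDE_01477, of 102 nt, had 1, 2 and 5 reads in gXlnRC and 1, 5 and 3 in gAraRC, and 0 in all gCXC and WT libraries. With WT set to a floor of 3 reads over the group, its level was 2.52 times that of WT in gXlnRC and 3.26 times in gAraRC. PDE_03091, of 51 nt, had 1, 1 and 2 reads in gXlnRC and 2, 3 and 7 in gAraRC, against 1, 1 and 0 in gCXC and 0 in each WT library. With the same floor, its gAraRC level was 4.35 times that of WT, and its gXlnRC level, from 4 reads in all, was 1.26 times. These ratios leave out the counting error of the few reads in gXlnRC and gAraRC, so they are not lower bounds. Both genes thus entered the list on a few reads per library, and the direct call of PDE_03091 as lower in gXlnRC (log2 difference -1.19 ± 0.33, limma adjusted p = 0.00669) was lost with a pseudocount of 0.1.

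PDE_07833 had 14, 16 and 23 reads in gXlnRC and 22, 11 and 12 in gAraRC, against 2, 9 and 8 in gCXC and 0, 3 and 0 in WT. The gXlnRC libraries lay inside the gAraRC range, with a direct log2 difference of 0.02 ± 0.22 that was not called. PDE_06725 had 2.19, 2.86 and 2.45 FPKM in gXlnRC and 7.39, 6.13 and 7.08 in gAraRC, against 1.2, 1.58 and 1.60 in gCXC and 0.333, 0.917 and 0.216 in WT. Here the strains were separate, with gAraRC above gXlnRC and a direct log2 difference of -1.17 ± 0.17 (limma adjusted p = 4.64e-05). In all, 8 members averaged under 50 reads over the gXlnRC and gAraRC libraries.

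Although gCXC was used to restrict the list, the members were not centred on the WT level there. Of the 97, 77 were above WT in gCXC, 19 below it and 1 equal to it, and 31 were at least 0.5 above while 6 were at least 0.5 below. Of the 8182 tested genes inside the same gCXC bounds, 52.2% were above WT with a median of 0.02, compared with 79.4% and a median of 0.31 for the members. The limma test called 43 members (44.3%) higher in gCXC than in WT, against 23.8% of all tested genes, and 8 members (8.25%) lower, against 26.5%. The contrast helped to choose the members and shares the 3 WT libraries with the others, so nothing is read from this shift or these counts.

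The 8 members called lower in gCXC were PDE_02514, PDE_03291, PDE_03292, PDE_04016, PDE_04023, PDE_05686, PDE_06415 and PDE_09793. They include genes from both arms of the direct contrast, those higher in gXlnRC and those lower in it. Without gCXC replicate 2, 5 members were called lower in gCXC. PDE_03711, the member closest to the upper gCXC bound, had 187, 192 and 180.1 FPKM in gXlnRC, 131, 218 and 165 in gAraRC and 79.7, 85.6 and 92.8 in gCXC, against 46.6, 49.3 and 52.9 in WT. Each library of the 3 engineered strains was above each WT library, with gCXC the lowest of them.

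The bounds cut through a continuous range. At the gXlnRC bound of 1, PDE_04017 lay just inside at 1.01 and PDE_01196 just outside at 0.997, and at the gAraRC bound PDE_06608 lay inside at 1.01 and PDE_07621 outside at 0.998. At the upper gCXC bound, PDE_03711 lay inside at 0.78 and PDE_08497 outside at 0.81. At the lower gCXC bound, PDE_04016 lay inside at -0.67 and PDE_04563 outside at -0.84. PDE_06608 had 6.06, 4.80 and 4.18 FPKM in gXlnRC and 3.85, 4.13 and 5.02 in gAraRC, against 0.647, 1.5 and 2.42 in gCXC and 3.24, 0.926 and 1.23 in WT, so that 1 WT library came close to the gAraRC range.

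The members called lower in gXlnRC and not described above were PDE_00326, PDE_01233, PDE_01459, PDE_01538, PDE_01699, PDE_01735, PDE_02223, PDE_02311, PDE_02593, PDE_02613, PDE_03241, PDE_03437, PDE_03458, PDE_04416, PDE_04782, PDE_04783, PDE_05606, PDE_06415, PDE_06535, PDE_06581, PDE_06658, PDE_06680, PDE_06868, PDE_08604, PDE_08605, PDE_08900, PDE_08968, PDE_09023, PDE_09068, PDE_09601 and PDE_09666. The members not called in the direct contrast and not described above were PDE_00827, PDE_00932, PDE_01234, PDE_01745, PDE_01746, PDE_02168, PDE_03438, PDE_03627, PDE_05095, PDE_05333, PDE_06011, PDE_06117, PDE_06329, PDE_06546, PDE_07276, PDE_07707, PDE_09181, PDE_09439 and PDE_09765. Over the 58 members called lower in gXlnRC, the median log2 difference was -0.84 and 25 differed by more than 1. Over the 13 called higher, it was 1.33 and 8 differed by more than 1.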

How the data were processed

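Mycelial mRNA of 12 cultures was captured and made into libraries with a strand-specific kit, per the labels' protocols. The authors deposited 1 table of FPKM values for 9979 genes and 12 libraries. The submitters' processing notes list DESeq2, featureCounts 1.5.0-p1, HISAT2 2.0.0 and CASAVA 1.8, without their roles. The sources used here give no genome build, annotation, counting strand or FPKM denominator, so overlapping or near-identical genes may share counts.

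The members and the lists were chosen with earlier results of these data known, and 13 tags were left out of the rule by name, 0 of which met its bounds. The 9125 genes with 3 or more libraries at 1 FPKM or above were kept. A model of group means with trended prior variance (8 residual degrees of freedom) was fitted by limma 3.58.1 under R 4.3.3 to the log2(FPKM + 1) values of the 12 libraries together. P-values (two-sided) were adjusted by Benjamini-Hochberg over all tested genes of a contrast, and calls were made below an adjusted p of 0.05. Differences on this scale understate those of low genes. The fit was checked on simulated data.

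Library totals, read numbers and coding lengths (multiples of 3 nt) were inferred from the step size of the FPKM values. At the accepted lengths, 100% of values lay within 0.1 of a whole number, which follows from the search, and 21.75% did at 1 wrong length. Reads entered the depths, read shares and 1 alternative fit (limma voom).

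The members described were the 8 with the largest smaller difference from WT, the 6 most positive and 6 most negative direct differences among called members, the 4 most abundant, the 4 lowest in WT, those of the 3 longest runs of tags and those next to each bound. A further 9 were added after their values were seen. Alternatives were other pseudocounts (0.1 and 5), other filters, 3 other scalings, a replicate block, a fit of the compared strains alone, limma voom and leaving out each library. Python 3.11.15 with numpy 2.4.6, pandas 2.3.3 and matplotlib 3.10.9 handled tables and plots. No sequence was used here.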

Additional observations from a re-analysis of the deposited data

How the results depend on the processing

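The list itself depended on the processing. It held 122 genes with a pseudocount of 0.1 (86 shared with the 97), 69 with a pseudocount of 5 (60 shared), 97 with no filter, 90 with a minimum of 5 FPKM, 135 with median-of-ratios scaling (96 shared), 119 as TPM (95 shared) and 127 after quantile normalization (91 shared). It held between 93 and 106 genes with 1 library left out, the most without WT replicate 3 (87 shared), and 49 members were found under all 19 of these alternatives. Of 239 recomputed counts of genes or members, 234 moved by less than 1.5 times. The others were the genes called lower in gXlnRC than in gAraRC, 3239 with median-of-ratios scaling and 3219 after quantile normalization, and the members called lower in gCXC than in WT, 5 with a pseudocount of 5, 5 after quantile normalization and 5 without gCXC replicate 2; the cause was not tested. With 1 library left out, between 66 and 72 members were called in the direct contrast (11 to 17 higher and 53 to 59 lower in gXlnRC), between 6190 and 6661 genes were called in it (4186 to 4508 higher and 1974 to 2157 lower), between 36 and 54 members were higher and 5 to 8 lower in gCXC than in WT, and 97 were higher than WT in gXlnRC and in gAraRC each time. The members' share of reads then lay between 6.486% and 6.973% in gXlnRC, 8.005% and 9.337% in gAraRC, 3.139% and 3.291% in gCXC and 2.219% and 2.34% in WT. Of 1030 direct differences of 47 named members, 986 kept their sign and call, 24 lost the call, 5 gained one and 15 turned sign. Those that turned were PDE_07833 (-0.1191 with median-of-ratios scaling, -0.0103 as TPM, -0.0357 after quantile normalization), PDE_06608 (-0.0317 with median-of-ratios scaling, -0.0399 after quantile normalization), PDE_03711 (-0.0924 with median-of-ratios scaling), PDE_05686 (-0.0028 with median-of-ratios scaling) and, with 1 library left out, PDE_01477 (range -0.5938 to 0.1034), PDE_07833 (-0.0971 to 0.2339), PDE_09758 (-0.1228 to 0.0595), PDE_03711 (-0.0266 to 0.3351) and PDE_09796 (-0.0883 to 0.0607). All but PDE_05686 were uncalled as reported. Replicate numbers are shared by the strains. Deviations of same-numbered gXlnRC and gAraRC libraries had correlations of 0.175, -0.0071 and 0.044, against -0.144 to 0.096 for different numbers. The highest was that of the replicate 1 libraries. The labels do not say that a number marks a shared batch, so the numbers were not taken to pair the libraries. With the replicate number as a block, 6577 genes and 71 members were called in the direct contrast (13 higher and 58 lower in gXlnRC), and 43 members were higher and 9 lower in gCXC than in WT. Read shares do not use the pseudocount, filter or scaling, and the list does not use the block, the fit of the compared strains alone or limma voom, so these gave no further values. Members with few reads, such as PDE_01477 and PDE_03091, are limited by depth.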
